A study of Mus musculus with 12 samples.

Results

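The 10 genes described here carry the induction of interferon-beta and the sensing of nucleic acids that can set it off: the interferon gene Ifnb1, the kinases Tbk1 and Ikbke, the adaptors Traf3 and Mavs, the sensors Ifih1, Dhx58 and Zbp1, and the scaffolds Tank and Azi2. They were chosen by name, as rows of the deposited count table that bear these symbols, and all 10 were found among its 40847 rows. Of these, 9 passed the filter on low counts, as did 14749 rows in all, and Ifnb1 did not.

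The cells were fetal liver alveolar-like macrophages, a mouse cell line model grown with GM-CSF at 30 ng/ml in every group. The 4 groups of 3 libraries were untreated, TGFβ (recombinant human TGFβ1 at 20 ng/ml in the culture), Pam3 (the TLR2 ligand Pam3CSK4 at 25 ng/ml for 18 h, without TGFβ) and Pam3+TGFβ (both). The title of the series poses the question whether TGFβ prepares these cells to make type I interferon when TLR2 is activated. The labels do not say whether the 3 libraries of a group came from separate cultures, so p-values measure only the spread between these libraries, which may be technical. GM-CSF was in the medium of all 4 groups, and cells without it were not measured.

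Library totals ran from 34036650 to 44374115 counts. A list of 7 macrophage markers summed to between 1.66e+04 and 3.59e+04 CPM (counts scaled to a common library size) in every library, lowest in the TGFβ group, and 7 alveolar macrophage markers summed to between 5.73e+03 and 7.68e+03. The macrophage sum was mostly Lyz2, at 2.98e+04 CPM in untreated and 1.52e+04 in TGFβ, and its members did not move together: Itgam was at 1088 and 38.8 CPM, Mertk at 223 and 222, and Fcgr1 at 81.1 and 91.3. The alveolar sum likewise held Marco at 2147 and 123 CPM, Fabp4 at 31.1 and 0.132, and Siglecf at 32.1 and 300.4. The part of these marker changes in the results was not tested, and in bulk RNA fewer cells of a type and less RNA per cell cannot be told apart. A list of 6 hepatocyte markers, for the tissue of origin, summed to 8.41 to 10.2 CPM in Pam3+TGFβ and 5.8 to 7.7 CPM elsewhere, with 2 of the 6 at 0. Nearly all of this sum was Afp, at 5.77 CPM in untreated, 5.9 in TGFβ, 7.02 in Pam3 and 9.27 in Pam3+TGFβ. The 6 markers of plasmacytoid dendritic cells, the specialised producers of type I interferon, summed to 0.803 to 1.59 CPM in the 9 libraries other than Pam3+TGFβ and to 0.791 to 1.95 CPM in Pam3+TGFβ, with 1 of the 6 at 0 throughout. Of 6 T and NK cell markers, 4 were at 0 in all libraries and the sum lay between 0.182 and 1.23 CPM. Untreated replicate 3, TGFβ replicate 2 and Pam3 replicate 1 stood apart from the other libraries of their groups: chi-square per degree of freedom was 133 to 220 in the pairs that held one of them and 9.99 to 28 in the other pairs. Calls of the 9 tested genes that were lost without these 3 libraries are given with their values below.

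Interferon-beta is made after a sensor of foreign RNA or DNA, or a Toll-like receptor, reaches the kinases TBK1 and IKKε. RIG-I-like receptors do so through MAVS on mitochondria, and TRAF3, TANK and AZI2 help bring the kinases to the adaptor. The kinases phosphorylate IRF3 and IRF7, which act at the Ifnb1 promoter together with NF-κB and AP-1 factors. The secreted interferon then raises many of the sensors through its own receptor and the STAT factors.

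The promoter of Ifnb1 is printed because it is the end point of this pathway, and short stretches of 3 others are printed because they hold the searched motifs. Sequences are from RefSeq promoter windows of 300 bases (table build GRCm38.p6), placed in GRCm39 by an exact match. The table held windows for Ifnb1, Ikbke, Tbk1, Traf3, Mavs, Ifih1, Tank and Azi2. Dhx58 and Zbp1 were not matched. Capitals mark an IRF core (AANNGAAA) and a κB-type element (GGGANNTTC) in Ifnb1, an IRF-type element (GAAANNGAA) in Ifih1, and an AP-1 element (TGANTCA) in Ikbke and Tank, where N is any base. Both strands were searched, and a match on the other strand is shown as the printed strand reads.
Ifnb1, chr4:88441102-88441221 (GRCm39, minus strand): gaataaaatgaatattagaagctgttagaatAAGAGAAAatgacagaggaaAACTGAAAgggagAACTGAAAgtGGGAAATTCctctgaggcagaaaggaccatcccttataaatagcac
Ifih1, upstream, chr2:62476693-62476722 (GRCm39, minus strand): aagaattcgcgTTCCCTTTCctgtttctca
Ifih1, downstream, chr2:62476550-62476579 (GRCm39, minus strand): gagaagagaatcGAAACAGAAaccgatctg
Ikbke, chr1:131207290-131207319 (GRCm39, minus strand): gagagagagaagTGAATCAggaagtatgat
Tank, chr2:61423423-61423452 (GRCm39, plus strand): gtgaagcgttaaTGACTCAgagcgcagtcg

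In the Ifnb1 window the IRF core occurred at 3 places, starting at positions -159, -139 and -126 from the RefSeq start, and the κB-type element lay at -116 to -108. The IRF core was added to the search after the Ifnb1 sequence had been read, because the longer IRF-type element chosen first had no match there. It is a loose motif, present in 23.9% of the 32544 distinct windows in the table. The κB-type element was in 3.94% of windows, the IRF-type element in 8.53%, and the AP-1 element in 7.79%. Ifih1 held the IRF-type element at -112 to -104 and again at 33 to 41, where the IRF core also matched and overlaps it. Ikbke held an AP-1 element and 1 IRF core. Tank had 4 windows: the 2 at its most upstream start held none of the motifs, and the 2 overlapping windows at a start farther downstream held the same printed AP-1 element and 1 IRF core. The GAS element TTCNNNGAA (8.33% of windows), was not found in any of the 8 genes, and the windows of Tbk1, Traf3, Mavs and Azi2 held none of the 5 motifs. A match is a stretch of letters and does not show that a factor binds there.

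Ifnb1, the single interferon-beta gene of the mouse, has 1 exon at chr4:88440262-88441011 (GRCm39, GENCODE M39). It was seen in the Pam3+TGFβ libraries only, with 11, 18 and 10 counts, while the 3 untreated, 3 TGFβ and 3 Pam3 libraries each had 0. Every library with both agents had counts and no other library did. The 39 counts among 116172180 gave a level of 0.343 ± 0.13 CPM (SD, n = 3), and the exact Poisson 95% interval of the sum was 27.7 to 53.3 counts. A sum of 0 over the 3 libraries of a group allows up to 3.69 counts. The intervals cover counting error only, since the reads carry no molecular identifiers. Set against a floor of 3 counts in each library, the mean Pam3+TGFβ level was 4.06-fold the floor in Pam3, 4.36-fold that in TGFβ and 4.34-fold that in untreated. These ratios are lower bounds only as to the groups at 0 and leave out the error of the Pam3+TGFβ mean.

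The exact two-sided permutation test of the 3 Pam3+TGFβ libraries against the 9 others gave p = 0.00909 for Ifnb1. This is the smallest value that 3 against 9 libraries allow. Any gene with counts in these 3 libraries alone would give it, and the 9 others pool 3 unlike groups. Against the 3 Pam3 libraries alone, or the 3 TGFβ libraries alone, the exact permutation test gave p = 0.1, the smallest value that 3 against 3 libraries allow. The count models did not give 1 answer for this gene. Without the filter on low counts, edgeR set Pam3+TGFβ above TGFβ at adjusted p = 0.00246, above Pam3 at 0.00238 and above untreated at 0.00174. DESeq2 on the same rows gave adjusted p = 0.281 against Pam3 and 0.257 against untreated, and no adjusted p against TGFβ (unadjusted p = 0.148). The interaction of Ifnb1 could not be resolved: 3 of its 4 groups were at 0, and edgeR gave adjusted p = 1 while DESeq2 gave none (unadjusted p = 0.323).

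Other interferon genes were near absent. All 13 Ifna genes in the table, and Ifne, Ifnl2, Ifnl3 and Ifng, had 0 counts in all 12 libraries. Ifnk, interferon kappa, summed to 0 counts in untreated, 4 in TGFβ, 11 in Pam3 and 24 in Pam3+TGFβ, so unlike Ifnb1 it had some counts with each agent alone. The TGFβ libraries held 1, 3 and 0 counts, at or below the floor of 3. In edgeR without the filter, neither TGFβ alone (adjusted p = 0.18) nor Pam3 alone (0.0714) was called against untreated. The Pam3+TGFβ libraries of Ifnk held 2, 10 and 12 counts and overlapped the Pam3 libraries at 5, 1 and 5. Ifnk against untreated gave adjusted p = 0.00667 in edgeR and 0.00473 in DESeq2, both without the filter, and its TGFβ effect with Pam3 gave 0.667 and 0.625. Within 300 kb of Ifnb1 the table held 30 other genes, 26 of them with a single exon, and 9 of those 26 had no count in any library. A single-exon neighbour, Klhl9, summed to 70034 counts.

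**Figure D1:**
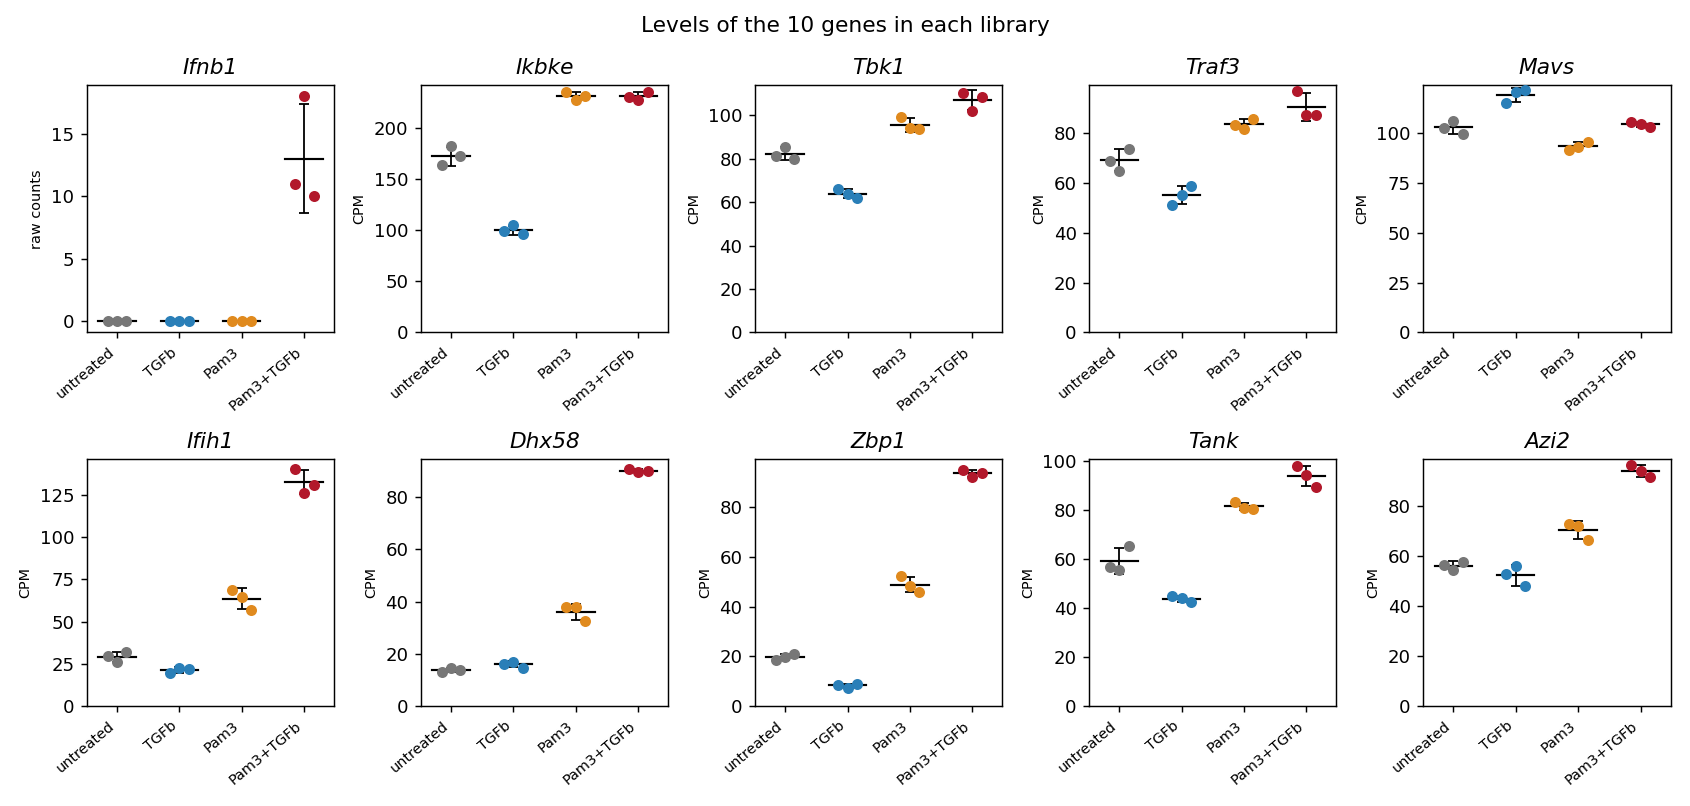
Each point is 1 library, in raw counts for Ifnb1 and in CPM for the 9 other genes, by group; lines and bars are the mean and SD of 3 libraries. Ifnb1 has counts only in Pam3+TGFβ, the 3 sensors Ifih1, Dhx58 and Zbp1 are highest there, and Ikbke reaches 230.8 CPM with Pam3 and 230.7 CPM with both agents.

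The kinases rose with Pam3 in both settings and fell with TGFβ alone. Ikbke, which encodes IKKε, stood at 163, 182 and 172 CPM in untreated libraries, 98.9, 105 and 96.2 in TGFβ, 235, 227 and 231 in Pam3, and 230.1, 227 and 235 in Pam3+TGFβ. The TGFβ libraries lay below all others, and the Pam3 and Pam3+TGFβ libraries overlapped. TGFβ alone lowered Ikbke 1.73-fold (log2 change -0.79, SE 0.047, adjusted p = 2.32e-13). With Pam3 present the log2 difference between TGFβ and no TGFβ was -0.00038 (SE 0.046, adjusted p = 0.996). Pam3 raised Ikbke 1.34-fold without TGFβ (adjusted p = 1.84e-07) and 2.31-fold with it (adjusted p = 8.26e-17), and the interaction was 0.79 (SE 0.066, adjusted p = 1.54e-09). The larger Pam3 response of Ikbke with TGFβ thus went with a lower starting level and the same end level within error. An antisense transcript, Gm28913, overlaps Ikbke exons and had 5.35 to 12.3 CPM by group. The strand setting of the counting is not given in the sources used here, so reads of the 2 cannot be told apart.

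Tbk1, the kinase shared by most routes to IRF3, moved in the same directions over a smaller range. It stood at 81.2, 85.5 and 79.8 CPM in untreated, 65.8, 63.8 and 61.7 in TGFβ, 99.4, 93.9 and 93.6 in Pam3, and 110.4, 101.9 and 108.6 in Pam3+TGFβ. No 2 groups overlapped, although the highest Pam3 library and the lowest Pam3+TGFβ library were close. Pam3 raised Tbk1 1.16-fold without TGFβ (log2 0.22, SE 0.054, adjusted p = 0.00446) and 1.68-fold with it (0.75, SE 0.054, adjusted p = 1.72e-11), an interaction of 0.53 (SE 0.076, adjusted p = 1.1e-05). TGFβ alone lowered it 1.29-fold (adjusted p = 2.86e-06). With Pam3, TGFβ raised it 1.12-fold (adjusted p = 0.015), a call that was lost without Pam3+TGFβ replicate 1 (adjusted p = 0.0724) or replicate 3 (adjusted p = 0.0545). The Pam3 response without TGFβ was not called when the 3 libraries that stand apart were left out (adjusted p = 0.109).

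Per kb of exon, the scale on which genes can be set side by side, the order of the kinases differed by group. Within a library, the log2 ratio of Ikbke to Tbk1 in CPM per kb was 0.191 ± 0.053 (SD, n = 3) in untreated, -0.23 ± 0.064 in TGFβ, 0.394 ± 0.031 in Pam3 and 0.232 ± 0.049 in Pam3+TGFβ. Ikbke was above Tbk1 in all libraries except the 3 with TGFβ alone. The lengths are those of all annotated exons together, so a different isoform use would shift these ratios.

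The adaptors behaved in different ways. Traf3, the ubiquitin ligase that links receptors and MAVS to TBK1, stood at 68.8, 65.0 and 73.8 CPM in untreated, 51.4, 55.3 and 58.9 in TGFβ, 83.4, 81.8 and 85.8 in Pam3, and 97.2, 87.4 and 87.3 in Pam3+TGFβ. Its 4 groups did not overlap, with TGFβ lowest. TGFβ lowered Traf3 1.25-fold without Pam3 (log2 -0.33, SE 0.063, adjusted p = 0.000112), while the difference with Pam3 was 0.11 (SE 0.062, adjusted p = 0.143) and was not called. Pam3 raised Traf3 1.21-fold without TGFβ (adjusted p = 0.00239) and 1.64-fold with it (adjusted p = 8.33e-10), an interaction of 0.44 (SE 0.089, adjusted p = 0.000778).

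Mavs, the mitochondrial adaptor of the RIG-I-like receptors, was the exception. It stood at 102.8, 106.5 and 99.95 CPM in untreated, 115.1, 120.6 and 121.9 in TGFβ, 91.8, 93.0 and 95.9 in Pam3, and 106, 105 and 103 in Pam3+TGFβ. Mavs was highest with TGFβ alone and lowest with Pam3 alone, and the untreated and Pam3+TGFβ libraries overlapped. TGFβ raised Mavs 1.16-fold without Pam3 (adjusted p = 0.000701) and 1.12-fold with it (adjusted p = 0.00799), and the interaction was -0.05 (SE 0.068, adjusted p = 0.726). Without the 3 libraries that stand apart, the TGFβ effect with Pam3 was not called (adjusted p = 0.0535). Pam3 lowered it 1.14-fold with TGFβ (adjusted p = 0.00266). The Pam3 decrease without TGFβ was 1.10-fold at adjusted p = 0.0445, and leaving out any 1 library except untreated replicate 3 ended that call (adjusted p 0.0508 to 0.169), as did leaving out the 3 libraries that stand apart (adjusted p = 0.136).

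The scaffolds that hold the kinases rose most with both agents. Tank, which binds TRAF3 and TBK1, stood at 56.6, 55.6 and 65.4 CPM in untreated, 45.0, 43.9 and 42.4 in TGFβ, 83.0, 80.7 and 80.4 in Pam3, and 97.9, 94.0 and 89.4 in Pam3+TGFβ. The groups of Tank did not overlap. TGFβ alone lowered Tank 1.35-fold (log2 -0.44, SE 0.062, adjusted p = 1.8e-06) and TGFβ with Pam3 raised it 1.15-fold (0.20, SE 0.061, adjusted p = 0.00769), a change of sign between the settings with an interaction of 0.64 (SE 0.087, adjusted p = 4.96e-06). Without Pam3+TGFβ replicate 1 the TGFβ effect on Tank with Pam3 had adjusted p = 0.0525. Pam3 itself raised Tank 1.38-fold without TGFβ (adjusted p = 3.9e-06) and 2.14-fold with it (adjusted p = 1.37e-13).

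Azi2, also called NAP1, another adaptor of TBK1 and IKKε, stood at 56.5, 54.3 and 57.7 CPM in untreated, 52.7, 56.2 and 48.0 in TGFβ, 73.0, 72.1 and 66.4 in Pam3, and 96.4, 93.9 and 91.7 in Pam3+TGFβ. The untreated and TGFβ libraries overlapped and the Pam3+TGFβ libraries lay well above the rest. The log2 change of Azi2 with TGFβ alone was -0.10 (SE 0.061, adjusted p = 0.172, not called), against 0.41 when Pam3 was present. Pam3 raised it 1.26-fold without TGFβ (adjusted p = 0.000283) and 1.80-fold with it (adjusted p = 1.79e-11), and the interaction was 0.52 (SE 0.086, adjusted p = 8.41e-05). Cmc1, on the other strand, overlaps Azi2 exons and had 7.69 to 9.77 CPM by group, lowest in Pam3+TGFβ.

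The sensors had the 3 largest Pam3 responses, with or without TGFβ, and the 3 largest interactions of the 9 tested genes. Ifih1 encodes MDA5, a receptor for long double-stranded RNA. It stood at 29.6, 26.2 and 32.1 CPM in untreated, 19.6, 22.8 and 21.8 in TGFβ, 68.8, 64.8 and 56.7 in Pam3, and 140.2, 126 and 131 in Pam3+TGFβ. The groups of Ifih1 did not overlap, and the lowest library with both agents lay far above the highest with Pam3 alone. Pam3 raised Ifih1 2.17-fold without TGFβ (log2 1.12, SE 0.079, adjusted p = 2.32e-10) and 6.18-fold with it (2.63, SE 0.082, adjusted p = 8.15e-18), an interaction of 1.51 (SE 0.11, adjusted p = 4.34e-10). TGFβ lowered it 1.37-fold without Pam3 (adjusted p = 5.48e-05) and raised it 2.08-fold with Pam3 (adjusted p = 3.8e-11).

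Dhx58, which encodes LGP2, a relative of MDA5 that modulates its signalling, stood at 13.1, 14.8 and 14.0 CPM in untreated, 16.3, 16.9 and 14.8 in TGFβ, 37.8, 37.9 and 32.5 in Pam3, and 90.7, 89.4 and 89.9 in Pam3+TGFβ. The Pam3+TGFβ libraries of Dhx58 were tightly grouped and above all others. Pam3 raised Dhx58 2.58-fold without TGFβ (log2 1.37, SE 0.074, adjusted p = 9.4e-13) and 5.62-fold with it (2.49, SE 0.074, adjusted p = 4.33e-19), an interaction of 1.12 (SE 0.10, adjusted p = 8.18e-09). With Pam3, TGFβ raised it 2.49-fold (adjusted p = 3.07e-14), more than any other of the 9 tested genes in that contrast. The TGFβ effect without Pam3, 1.15-fold higher at adjusted p = 0.0336, was lost without TGFβ replicate 1 (adjusted p = 0.051), TGFβ replicate 2 (0.1), untreated replicate 1 (0.0959) or untreated replicate 3 (0.0644), and without the 3 libraries that stand apart (0.166).

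Zbp1, a sensor of left-handed (Z-form) nucleic acids, had the largest interaction. It stood at 18.6, 19.7 and 21.1 CPM in untreated, 8.58, 7.48 and 8.96 in TGFβ, 52.0, 48.3 and 46.0 in Pam3, and 94.9, 91.9 and 93.4 in Pam3+TGFβ. TGFβ alone gave the lowest libraries of Zbp1 and TGFβ with Pam3 the highest, with no overlap of groups. TGFβ lowered Zbp1 2.38-fold without Pam3 (log2 -1.25, SE 0.077, adjusted p = 4.95e-13) and raised it 1.92-fold with Pam3 (0.94, SE 0.068, adjusted p = 1.27e-11). Pam3 raised it 2.46-fold without TGFβ (adjusted p = 9.4e-13) and 11.2-fold with it (adjusted p = 4.71e-21), so the interaction of 2.19 (SE 0.10, adjusted p = 6.3e-14) held both a lower start and a higher end.

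**Figure D2:**
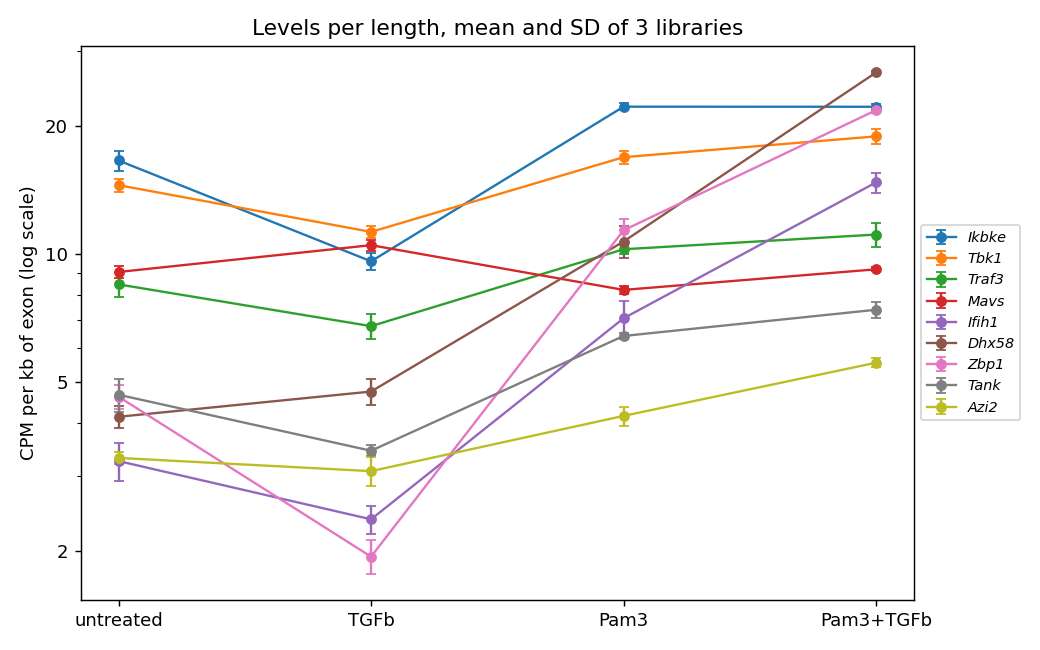
Mean CPM per kb of exon on a log scale, with SD of 3 libraries, for the 9 tested genes in each group; lines join the groups of a gene. Dhx58 goes from 4.14 in untreated to 26.7 in Pam3+TGFβ, where it is the highest of the 9 on this scale, and Mavs stays between 8.23 and 10.5. Lengths are those of all annotated exons together.

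Per kb of exon, Ikbke and Tbk1 were the most abundant of the 10 genes in untreated cells, at 16.6 and 14.5 CPM per kb, with Ifih1 at 3.26 and Azi2 at 3.31 the lowest of those tested. With both agents the order was Dhx58 at 26.7, Ikbke at 22.2, Zbp1 at 21.8, Tbk1 at 18.9 and Ifih1 at 14.7 CPM per kb. Dhx58 and Zbp1, low in untreated cells, stood above Tbk1, while Ifih1 stayed below both kinases. This order rests on the annotation, since the lengths sum all annotated exons, 3373 bases for Dhx58 and 10412 for Ikbke. In CPM with both agents, Ikbke stood at 230.7 and Dhx58 at 90.0. Ifnb1 itself, with its single short exon, stood at 0.457 ± 0.17 CPM per kb in Pam3+TGFβ.

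**Figure D3:**
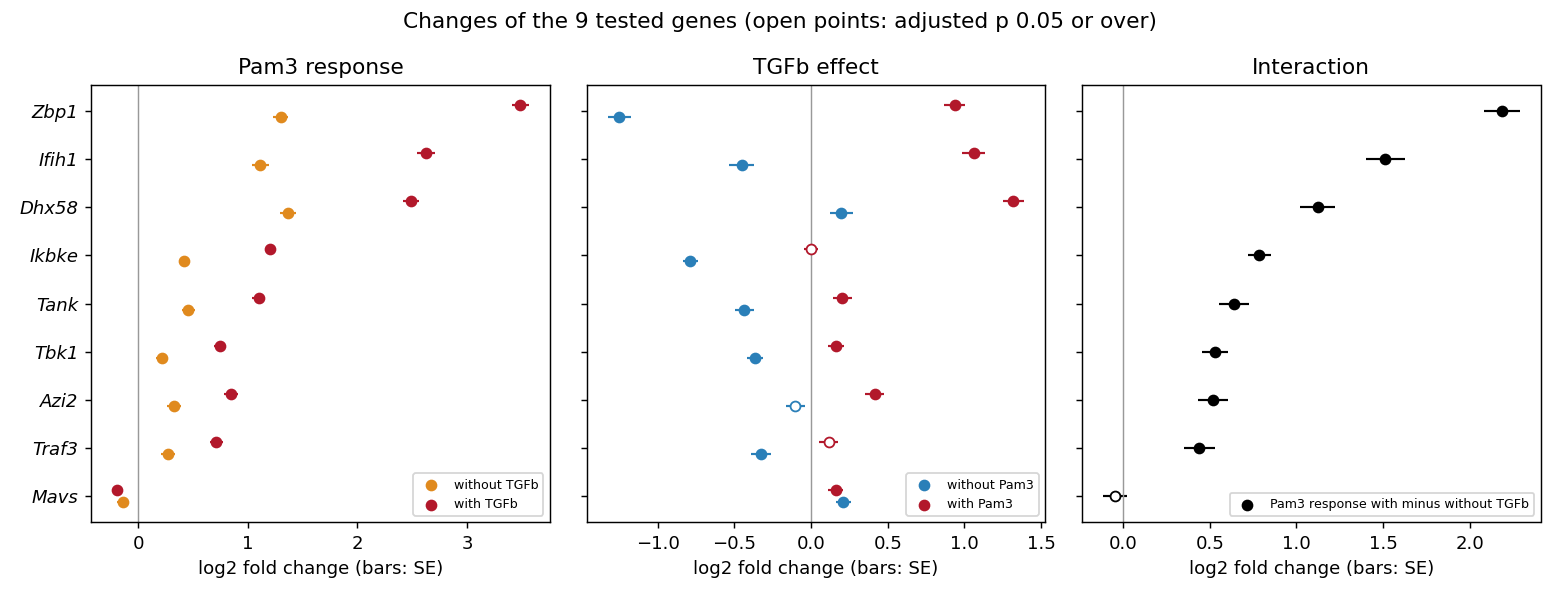
Log2 fold changes with SE for the 9 tested genes, sorted by interaction: the Pam3 response without and with TGFβ, the TGFβ effect without and with Pam3, and the interaction. Filled points passed adjusted p under 0.05; the interaction runs from -0.05 for Mavs to 2.19 for Zbp1.

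Across the 9 tested genes, Pam3 without TGFβ raised 8 and lowered 1, and 18.3% of all tested genes were called in that contrast in either direction. Pam3 with TGFβ also raised 8 and lowered 1 (38.5% of all genes called). TGFβ without Pam3 lowered 6 and raised 2 (51% called), and TGFβ with Pam3 raised 7 and lowered none (45.3% called). The interaction was called for 8 of the 9, all with a larger Pam3 response in the presence of TGFβ (15.9% called), and Pam3+TGFβ was above untreated for 8 (52.1% called). In contrasts that call near or above 40% of all genes, the count of called genes says little by itself; the interaction and the Pam3 response without TGFβ have the lowest background. The median log2 change of the 9 was 0.42 for Pam3 without TGFβ and 1.1 with it, -0.37 for TGFβ without Pam3 and 0.20 with it, and 0.64 for the interaction, where the median over all tested genes was 0.0045. These contrasts share libraries, so they are not independent of one another.

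Which of the genes moved with Ifnb1 was judged by the gap between the lowest Pam3+TGFβ library and the highest of the 9 other libraries, in log2 CPM. The gap was above 0 for 7 of the 9 tested genes, and for 10% of all tested genes (1477 of 14749). It was 1.24 for Dhx58, 0.874 for Ifih1 and 0.82 for Zbp1, so each of the 3 sensors was clearly separated. It was 0.329 for Azi2, 0.107 for Tank, 0.0361 for Tbk1 and 0.0244 for Traf3, the last 3 of them narrow. Ikbke (-0.048) and Mavs (-0.239) overlapped the other libraries. By this measure the sensors and Azi2 were highest where Ifnb1 was seen, and so were Tank, Tbk1 and Traf3 by narrow margins. The level of Ikbke did not separate Pam3+TGFβ, with Ifnb1 counts, from Pam3, with none. The widest gaps of all were in Cxcl10 (4), Ifit3 (3.14), Ifit3b (3.01), Ly6c2 (3), Thbs4 (2.95) and Dll1 (2.87). Dhx58 ranked 87th and Ifih1 169th of 14749.

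**Figure D4:**
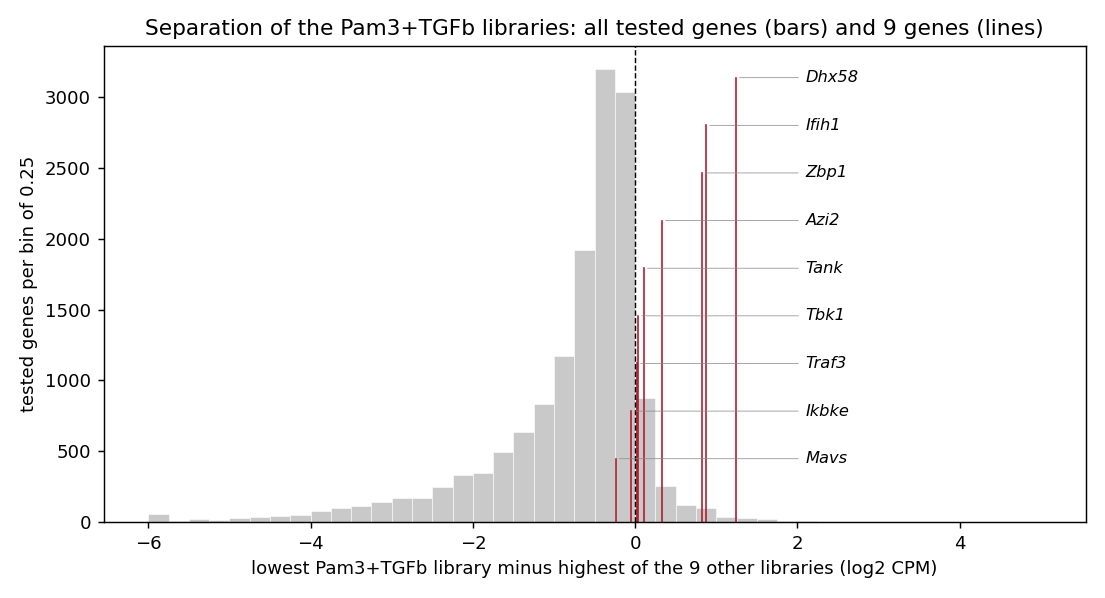
Bars count tested genes by the gap in log2 CPM between the lowest Pam3+TGFβ library and the highest of the 9 other libraries (gaps below -6 are in the lowest bin); lines mark 9 genes. Of these, 7 lie above 0, led by Dhx58 at 1.24, and Ikbke and Mavs lie below.

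Genes with the detection pattern of Ifnb1, at least 10 counts in every Pam3+TGFβ library and 3 or fewer in every other library, numbered 4 of 12991 genes with at least 10 counts in each Pam3+TGFβ library (0.0308%). They were Hsh2d (20, 12 and 20 counts), Gpr25 (11, 13 and 14), Ifnb1 and Trac (10, 10 and 15). The likeness rests on 12 libraries and on counts near the limit, and the cut of 10 equals the lowest Ifnb1 count in Pam3+TGFβ. Genes with more than 3 counts in any other library cannot enter, so the small share does not measure how rare the pattern is. Trac encodes the constant region of the T cell receptor alpha chain. Of the 6 T and NK cell markers, 4 were at 0 in all libraries, and the list summed to 0.402 to 0.791 CPM in Pam3+TGFβ. Klrb1c of this list had 52 counts in untreated, 127 in TGFβ, 35 in Pam3 and 71 in Pam3+TGFβ.

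The rest of the pathway was read from lists of 121 other genes, of which 100 were tested. The interaction was called higher for 39 and lower for 2 of the 100, with a median of 0.17, while over all tested genes 1516 were higher and 836 lower. Without the 3 libraries that stand apart, 37 interactions were called in either direction, against 41. The gap was above 0 for 37 of the 100. The lists are described by these counts alone, and nothing here shows that they differ from other genes.

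Among 18 further sensors, the interaction was higher for 8 and lower for 1. Ifi204, a DNA sensor of the IFI16 family, went from 27.8 CPM in untreated to 8.26 with TGFβ, 87.8 with Pam3 and 210 with both (interaction 3, SE 0.14, adjusted p = 1.97e-11). It has close relatives, so its reads may be shared with them. RIG-I, listed under the older symbol Ddx58, went from 44.1 to 38.6, 127 and 344 CPM in the same order (1.63, SE 0.091). Eif2ak2, the RNA-dependent kinase PKR, reached 279 CPM (1.14), and Ddx60 34.4 CPM (1.22). Cgas, the enzyme that detects cytosolic DNA, went from 27.2 to 33.5, 38.6 and 76.1 CPM (0.68, SE 0.088, adjusted p = 2.18e-06). Dhx36 and Lrrfip1 had the smallest interactions of this list, at -0.02 and 0.02.

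Among 15 further adaptors the interaction was higher for 5 and lower for none. Myd88, an adaptor of TLR2, went from 153 CPM in untreated to 113 with TGFβ, 177 with Pam3 and 218 with both (0.74, SE 0.068, adjusted p = 7.48e-09). Tasl, the adaptor of IRF5 (0.77), Traf6 (0.36) and Traf5 (0.45) were also called. Ticam1, or TRIF, the adaptor of TLR3 and TLR4, stood at 33.4, 21.8, 33.1 and 22.6 CPM, lower with TGFβ in both settings and with an interaction of 0.07 (adjusted p = 0.757). Sting1 fell from 98.7 CPM in untreated to 81.2 with TGFβ and 75.6 with Pam3, and was 73.5 with both (interaction 0.24, adjusted p = 0.0365). The Sting1 interaction lost its call without any 1 library except Pam3 replicate 3, TGFβ replicate 1 and untreated replicate 3 (adjusted p 0.0508 to 0.156), and without the 3 libraries that stand apart (0.218). That of Traf5 did so without any 1 library except Pam3 replicate 2, TGFβ replicate 1 and untreated replicates 1 and 3 (0.064 to 0.173), and without those 3 (0.0951). Among 11 further kinases and scaffolds, 1 was called, Tax1bp1 (0.27, adjusted p = 0.0041), and the kinase partner Tbkbp1 was not (-0.02, adjusted p = 0.895).

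Of the 11 transcription factors, the interaction was higher for 6 and lower for 1. Irf3, the factor that TBK1 activates directly, stood at 45.4 ± 4.7, 48.9 ± 1.6, 43.4 ± 0.99 and 45.0 ± 1.2 CPM in untreated, TGFβ, Pam3 and Pam3+TGFβ (SD, n = 3) and was called in none of the 6 contrasts. Between the groups with a single agent, compared only to order the levels, Irf3 was lower in Pam3 than in TGFβ (log2 -0.17, adjusted p = 0.0322). Irf7, its inducible relative, went from 6.91 and 5.53 CPM to 50.4 with Pam3 and 220 with both (interaction 2.45, SE 0.28, adjusted p = 0.000256). Irf1 reached 116 CPM with both against 61.6 with Pam3 (1.28), Jun 65.4 against 55.5 (0.79) and Irf5 343 against 270 (0.58).

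Of 22 ubiquitin ligases and brakes on the pathway, 9 had a higher interaction. Tnfaip3, or A20, a brake on NF-κB, fell from 43.5 to 15.9 CPM with TGFβ, and stood at 69.6 with Pam3 and 120 with both (2.24, SE 0.089, adjusted p = 4.93e-15). Its partner Tnip1 reached 392 CPM (1.3). Nlrc5 went from 8.77 to 0.996 CPM with TGFβ, 23.5 with Pam3 and 22.2 with both (3.05, SE 0.18, adjusted p = 3.67e-12), like Ikbke a lower start with a TGFβ difference that was not called under Pam3 (adjusted p = 0.535). Of 9 tested genes that remove or edit nucleic acids, Adar (0.73) and Samhd1 (0.39) were called. The other 7 were not.

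Downstream, 6 of 9 genes of the interferon receptor and JAK-STAT list had a higher interaction. Stat2, a factor that carries the interferon signal to the nucleus, went from 80.3 CPM in untreated to 94.9 with TGFβ, 162 with Pam3 and 425 with both (1.15, SE 0.068, adjusted p = 3.67e-12). The brake Usp18 reached 65.2 CPM from 1.35 in untreated (2.43). Jak1 and the receptor subunit Ifnar2 had interactions of 0.12 and 0.17, not called (adjusted p = 0.217 and 0.178). At the receptor that Pam3 binds, Tlr2 itself went from 454 CPM in untreated to 324 with TGFβ, 594 with Pam3 and 1040 with both (1.3, SE 0.076, adjusted p = 3.67e-12). Its partners differed: Tlr1, which pairs with TLR2 for this ligand, fell from 12.4 to 0.905 CPM with TGFβ and stood at 19.4 with Pam3 and 1.31 with both.

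**Figure D5:**
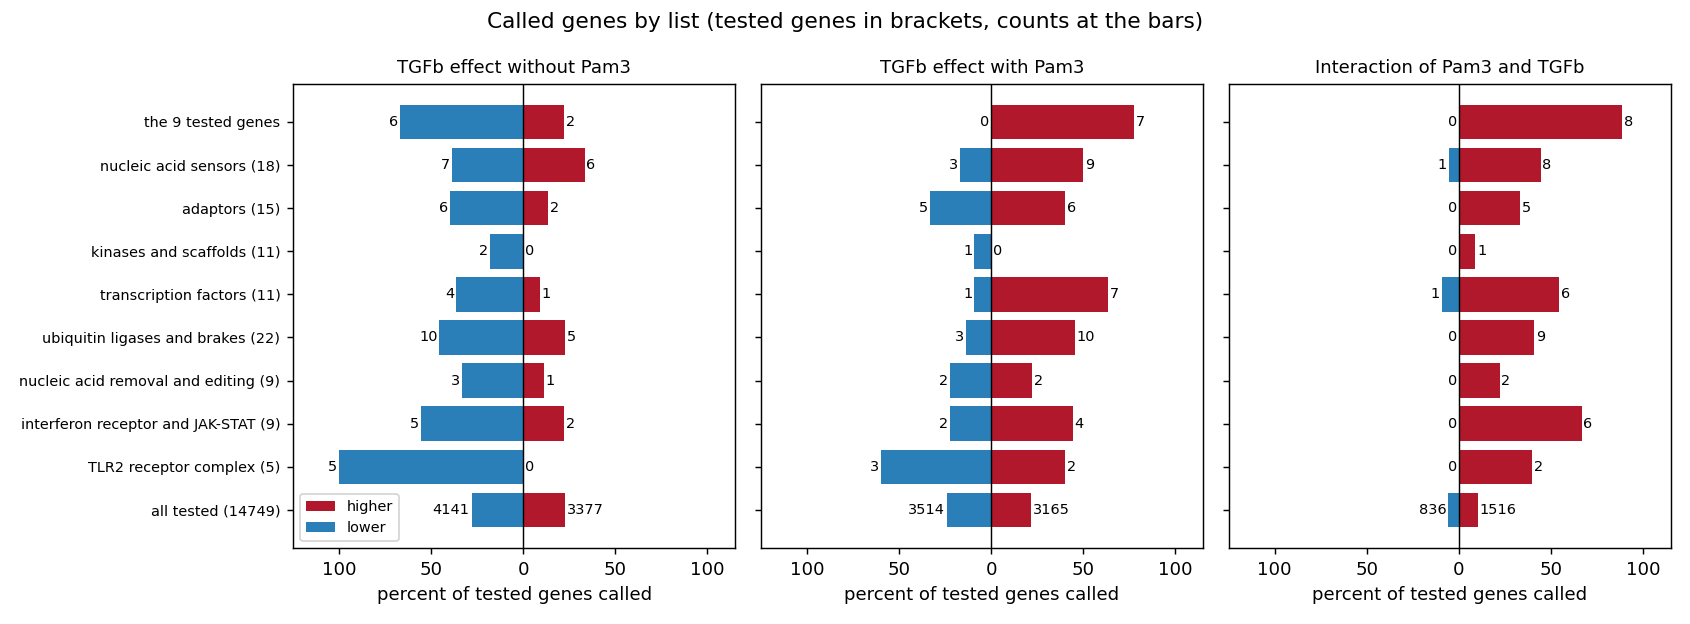
Percent of tested genes called higher (right) and lower (left) in 3 contrasts, with counts at the bars, for the 9 tested genes, 8 lists of other pathway genes and all 14749 tested genes. In the interaction 8 of the 9 genes are higher and none lower, against 1516 higher and 836 lower among all tested genes.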

How the data were processed

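The deposited table holds raw counts per gene symbol, which the authors made with Bowtie2 2.4.1 on GRCm39 and featureCounts of Subread 2.0.0, per the submitters' processing notes. The annotation and strand setting of counting are not given in the sources used here. Bowtie2 does not split reads at introns, which bears less on the single-exon Ifnb1 than on the other members. The authors' deposited normalized signal, the counts divided by 1 constant per library, served only for an alternative.

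The counts were filtered with filterByExpr (minimum count 10), scaled with TMM and fitted on all 12 libraries by edgeR 4.0.16 (R 4.3.3), using its quasi-likelihood test with 4 group means. P-values were adjusted by Benjamini-Hochberg across the 14749 genes, and a gene was called below 0.05. The interaction subtracts the Pam3 response measured without TGFβ from the one measured with it. SE is the size of the log2 change divided by the square root of F. CPM uses TMM-scaled totals, and levels per kb use summed exon lengths of GENCODE M39. Alternatives were DESeq2 1.42.0, limma 3.58.1, other scalings and filters, a replicate block, only the libraries compared, and leaving out libraries. The procedure was tested on simulated data, where it missed part of the changed genes and the share of unchanged genes among its calls was above the nominal rate, so an adjusted p near 0.05 is weak evidence.

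The 10 members, the lists and the tests were chosen with earlier results of these data known. Other genes were named by rule: in each list, up to 4 called genes with the largest interaction and no overlap between Pam3+TGFβ and 1 single-agent group, 2 with the smallest, and the central genes Irf3, Irf7, Tlr2, Rigi, Sting1, Ticam1 and Cgas. Part of the genes that the rule picks are described, and 1 is not reported here.

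Same-numbered libraries did not deviate together (correlations of -0.174 to 0.3, 7 of 18 pairs over 0.1), so the numbers were not taken to pair the samples.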

Additional observations from a re-analysis of the deposited data

Results flagged for a closer look

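For 8 of the 9 tested genes the interaction test of edgeR found Pam3 responses that were unequal with and without TGFβ. Over all tested genes it called 2352 of 14749 (15.9%) in either direction. The interaction of Ifnb1 could not be resolved. On the log2 scale the responses differed by 2.19 for Zbp1, 1.51 for Ifih1, 1.12 for Dhx58 and 0.786 for Ikbke. The differences were 0.641 for Tank, 0.528 for Tbk1, 0.517 for Azi2 and 0.44 for Traf3. All 8 responses were larger with TGFβ. In Ikbke and Traf3 the level under Pam3 was not called different with TGFβ, and in the other 6 it was higher.

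The same test picked out pathway genes outside the 10. Among sensors the differences were 3 for Ifi204, 1.63 for Ddx58, 1.22 for Ddx60, 1.14 for Eif2ak2 and 0.682 for Cgas. Among adaptors and scaffolds they were 0.765 for Tasl, 0.739 for Myd88, 0.451 for Traf5, 0.359 for Traf6, 0.272 for Tax1bp1 and 0.241 for Sting1. Among transcription factors they were 2.45 for Irf7, 1.28 for Irf1, 0.793 for Jun and 0.579 for Irf5. Among ligases, brakes and editing enzymes they were 3.05 for Nlrc5, 2.24 for Tnfaip3, 1.3 for Tnip1, 1.05 for Trim21, 0.725 for Adar and 0.39 for Samhd1. In the interferon receptor and TLR2 lists they were 2.43 for Usp18, 1.78 for Socs1, 1.15 for Stat2, 1.3 for Tlr2 and 0.932 for Cd14. Under Pam3, TGFβ lowered Tax1bp1 (log2 -0.17, adjusted p = 0.00341). The level under Pam3 was not called different for Traf5, Sting1, Nlrc5, Samhd1 and Socs1, and in the other genes of this paragraph it was higher. The Traf5 and Sting1 interactions lost their calls without several single libraries, as given above. Tlr8 and Irf8, also given above, had negative differences.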

How the results depend on the processing

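Of 1125 values of the 9 tested genes in 6 contrasts over all alternatives, 1099 kept their side of the threshold, 26 lost the call, and no called value reversed. The sign differed from the main value in 19 of the uncalled values: 17 for Ikbke (TGFβ with Pam3, -0.000379, reaching 0.0229 with at least 10 counts in every library) and 2 for Mavs (Pam3+TGFβ against untreated, 0.0209, reaching -0.0095 under upper-quartile scaling). The losses fell on 6 of 54 pairs of gene and contrast: Mavs (Pam3 without TGFβ, also with limma at adjusted p = 0.0511, no filter at 0.0815, only the compared libraries at 0.127 and without the 3 libraries that stand apart at 0.136), Dhx58 (TGFβ without Pam3, also with only the compared libraries at 0.062), and Tbk1 (2 contrasts), Tank and Mavs (TGFβ with Pam3) as given in the results; for these the cause was not tested. Leaving out the 3 libraries that stand apart was added after the data were seen; it lowered the genes called for the interaction from 2352 to 1889 and left all 8 calls of the members. A replicate block changed 0 of the 54 calls; 5 of 12 libraries correlated best with their own number. Under the 2 other scalings the median log2 change over all genes lay between -0.0801 and 0.0228. The Ifnb1 difference was 0.343 CPM against Pam3 or TGFβ alone as well, a size fixed in advance because all other libraries had 0 counts. In these comparisons 3 against 3 libraries cannot pass 0.05. The log2 change of Ifnb1 in DESeq2 without a filter, 6.07 (TGFβ with Pam3) and 6.16 (against untreated), was not called. Against groups at 0 counts such a size depends on the model (6.71 in edgeR for both). Only the ratios of the Pam3+TGFβ mean to the floor of 3 counts, 4.06-fold and 4.34-fold, can be given. They leave out the error of that mean. The summed counts of Ifnb1 ran from 21 to 29 when 1 Pam3+TGFβ library was left out. At 10 to 18 counts a library, depth limits Ifnb1 more than any other member.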
